A study of Mus musculus with 15 samples.

Results

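The genes described here are the 42 protein-coding mouse genes that carry the names of the main amino acid transporter families, of 21887 protein-coding genes in all. They were chosen by symbol alone, as every gene whose symbol begins with Slc1a, Slc7a, Slc36a, Slc38a or Slc43a, together with Slc3a1 and Slc3a2 and without Slc38a9. The rule uses no measured value, though it was set with earlier results of these data known. There were 7 Slc1a genes, 2 Slc3a genes, 16 Slc7a genes, 4 Slc36a genes, 10 Slc38a genes and 3 Slc43a genes. The Slc7a symbol Slc7a6os names a gene on the opposite strand of Slc7a6 that is not itself a transporter, and it was kept because the prefix takes it in. For each gene, accessible sites were read from 3 ATAC-seq peak lists. ATAC-seq uses a transposase that cuts open chromatin, so that a peak marks a stretch of accessible DNA, commonly a promoter or an enhancer.

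The cells were haematopoietic stem cells (HSC) sorted from adult mice that had all received poly(I:C), which induces the interferon-responsive Mx1 promoter. There was 1 library per genotype. WT was Mx1-Cre-/-;mTORflox/flox and thus carried floxed alleles of the kinase gene Mtor without Cre. KO was Mx1-Cre+/-;mTORflox/flox, in which Cre can delete both alleles, and KI was Mx1-Cre+/-;mTORflox/knockin, in which the allele left after deletion is the knock-in. Cre was present in KO and KI but not in WT, so an effect of Cre and one of the Mtor alleles cannot be told apart in any comparison with WT. The labels mark WT and KO as re-analysed and KI not, so the KI genotype and a difference in processing cannot be told apart either. Mx1-Cre acts in many interferon-responsive cells besides HSC, and the labels do not say how many mice were pooled. With 1 library per genotype there was no replicate check, and no test between genotypes was made. An absent peak can mean fewer cells with an open site or less opening per cell, and these cannot be told apart in bulk libraries.

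Amino acids cross membranes through carriers of several unrelated families. Slc1a proteins are sodium-driven carriers of glutamate or of neutral amino acids. Slc7a proteins are either cationic amino acid carriers, which work alone, or light chains of heteromeric exchangers, which reach the membrane only when joined to a heavy chain, Slc3a1 or Slc3a2. Slc38a proteins take up glutamine, alanine and other small neutral amino acids together with sodium. Several Slc36a proteins, though not all, move amino acids with protons, often at the lysosome. Slc43a1 and Slc43a2 carry large neutral amino acids such as leucine. The kinase mTOR, in its complex mTORC1, is activated at the lysosome when leucine, arginine and glutamine are available, and its activity in turn raises translation of the transcription factor ATF4, which drives many of the carrier genes. Amino acid supply and mTOR activity are thus coupled in many cell types.

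The upstream sequence of 5 genes is printed here because the results turn on them. Slc36a4 and the inner start of Slc3a2 had a peak within 1 kb in both mutant lists and none in WT. At that Slc3a2 start the KO peak lay 108 bp downstream and did not reach the printed bases, while the KI peak did. Slc1a4 had the strongest start peak of the family in every list, Slc36a1 is a start open in all 3 lists with an E-box in it, and Slc7a11 holds a pair of ATF4-type elements. Each printed sequence is the 250 bases before an annotated transcript start, written 5′ to 3′ on the gene's strand, from RefSeq (GRCm38.p6, the assembly behind mm10). Capitals mark the motifs that were searched for, TGATGNAA (the core of the CEBP-ATF response element bound by ATF4), CACGTG (the E-box bound by MYC, TFEB and related factors) and TGANTCA (the AP-1 element), on both strands. Slc36a4 lies on the plus strand at chr9:15709488-15709737, the Slc3a2 inner start on the minus strand at chr19:8713898-8714147, Slc1a4 on the minus strand at chr11:20332714-20332963, Slc36a1 on the plus strand at chr11:55204090-55204339 and Slc7a11 on the minus strand at chr3:50443614-50443863.
Slc36a4: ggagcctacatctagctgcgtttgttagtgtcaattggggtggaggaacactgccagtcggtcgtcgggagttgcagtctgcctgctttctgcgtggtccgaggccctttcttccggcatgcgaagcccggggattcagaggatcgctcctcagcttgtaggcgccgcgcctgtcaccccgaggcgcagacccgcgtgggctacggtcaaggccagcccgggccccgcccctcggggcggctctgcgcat
Slc3a2 inner start: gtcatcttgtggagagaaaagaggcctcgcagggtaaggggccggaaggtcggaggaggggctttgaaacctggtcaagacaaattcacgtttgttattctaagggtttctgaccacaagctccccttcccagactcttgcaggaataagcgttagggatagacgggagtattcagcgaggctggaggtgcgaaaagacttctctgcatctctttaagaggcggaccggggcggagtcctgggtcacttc
Slc1a4: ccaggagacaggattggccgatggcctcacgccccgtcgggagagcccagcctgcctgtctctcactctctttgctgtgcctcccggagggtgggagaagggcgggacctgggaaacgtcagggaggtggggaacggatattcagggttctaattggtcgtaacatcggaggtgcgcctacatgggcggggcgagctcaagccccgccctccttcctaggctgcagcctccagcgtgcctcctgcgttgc
Slc36a1: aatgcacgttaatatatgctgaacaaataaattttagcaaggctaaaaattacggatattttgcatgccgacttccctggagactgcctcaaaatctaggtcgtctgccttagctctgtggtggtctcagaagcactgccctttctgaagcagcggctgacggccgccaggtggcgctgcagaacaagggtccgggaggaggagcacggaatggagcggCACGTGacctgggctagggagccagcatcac
Slc7a11: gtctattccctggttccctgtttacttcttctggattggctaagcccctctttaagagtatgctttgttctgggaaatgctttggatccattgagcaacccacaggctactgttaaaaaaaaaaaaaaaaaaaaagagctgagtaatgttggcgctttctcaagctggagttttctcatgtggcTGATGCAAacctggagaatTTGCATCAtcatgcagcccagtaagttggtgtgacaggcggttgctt
In the 42 upstream windows annotated for 31 of the genes, TGATGNAA occurred in 3 windows of 2 genes (7.14% of windows, against 3.18% of all 21263 windows of protein-coding genes). The printed Slc7a11 window holds it in both orientations, at 66 and 47 bases before the start, the first as TGATGCAA and the second as its reverse complement, TTGCATCA. Slc7a11 makes the light chain of the cystine and glutamate exchanger, and the other gene with the motif was Slc7a7, a light chain for cationic and neutral amino acids. CACGTG occurred in 7 windows (16.7%, against 6.63%), those of Slc1a6, Slc1a7, Slc36a1, Slc38a5, Slc38a7, Slc43a1 and Slc7a14, and in Slc36a1 it began 31 bases before the start. TGANTCA occurred in 4 windows (9.52%, against 6.13%), those of Slc38a10, Slc38a7, Slc3a1 and Slc7a1. No match overlapped another, and a match is only a run of letters. The windows of Slc36a4, Slc3a2 and Slc1a4 held none of the 3 motifs. The Slc36a4 window had 23 CpG dinucleotides and a GC content of 66%, the Slc3a2 inner window 11 and 53.6%, and the Slc7a11 window 2 and 43.2%.

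The targeted gene and the cell identity were looked at first. The Mtor start peak stood at percentile 96.7 of the WT list and 82.1 of the KI list, counted from the weakest peak up, and KO had none. Of 12 genes that mark haematopoietic stem and progenitor cells, 8 had a start peak in WT, 4 in KO and 7 in KI, while 10, 10 and 11 had a peak in the gene or within 10 kb of it. Cd34, Procr and Runx1 were among those with a start peak in WT and none in KO, and Ly6a, Slamf1, Gata2 and Tek had none in any list. Start peaks at 4 erythroid markers numbered 0, 1 and 2 in WT, KO and KI, at 4 granulocyte and monocyte markers 0, 0 and 2, at 4 B lymphoid markers 1, 0 and 1, at 4 T lymphoid markers 0 in each list, and at 4 endothelial and stromal markers 0, 1 and 2. Counting the gene and 10 kb either side, 2, 2 and 3 erythroid and 2, 0 and 4 granulocyte and monocyte markers had a peak. So did 3, 3 and 3 B lymphoid, 1, 1 and 2 T lymphoid, and 2, 3 and 3 endothelial and stromal markers. Of all protein-coding genes, 46.3, 46.1 and 53.6% had a start peak, and 60.7, 61.5 and 69.7% a peak within 10 kb. Of all genes with a WT start peak, 10.3% had none in KO, against 4 of 8 stem and progenitor markers. The part of these marker differences in the differences at the transporter genes was not tested.

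About as many transporter genes had an open start as genes at large. A start peak is a peak within 1 kb of an annotated transcript start. For 11 of the 42 genes the reference tables used gave no strand, and for these a peak within 1 kb of either end of the gene was taken, which may be the 3′ end. A start peak was present at 18 of 42 genes in WT (42.9%, 95% Wilson interval 29.1 to 57.8%, against 46.3% of all protein-coding genes). In KO it was present at 19 (45.2%, interval 31.2 to 60.1%, against 46.1%), and in KI at 21 (50%, interval 35.5 to 64.5%, against 53.6%). These intervals cover counting error over genes only, and genes are not replicates. In all, 15 genes had a start peak in all 3 lists (35.7%, against 41.2% of all genes), 19 had one in none (45.2%, against 44.1%) and 8 in some (19%, against 14.7%), shares near those of all genes. The KI list was the longest, with 28391 peaks against 17316 in WT and 19189 in KO, and its share of all genes with a start peak was the highest.

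**Figure D1:**
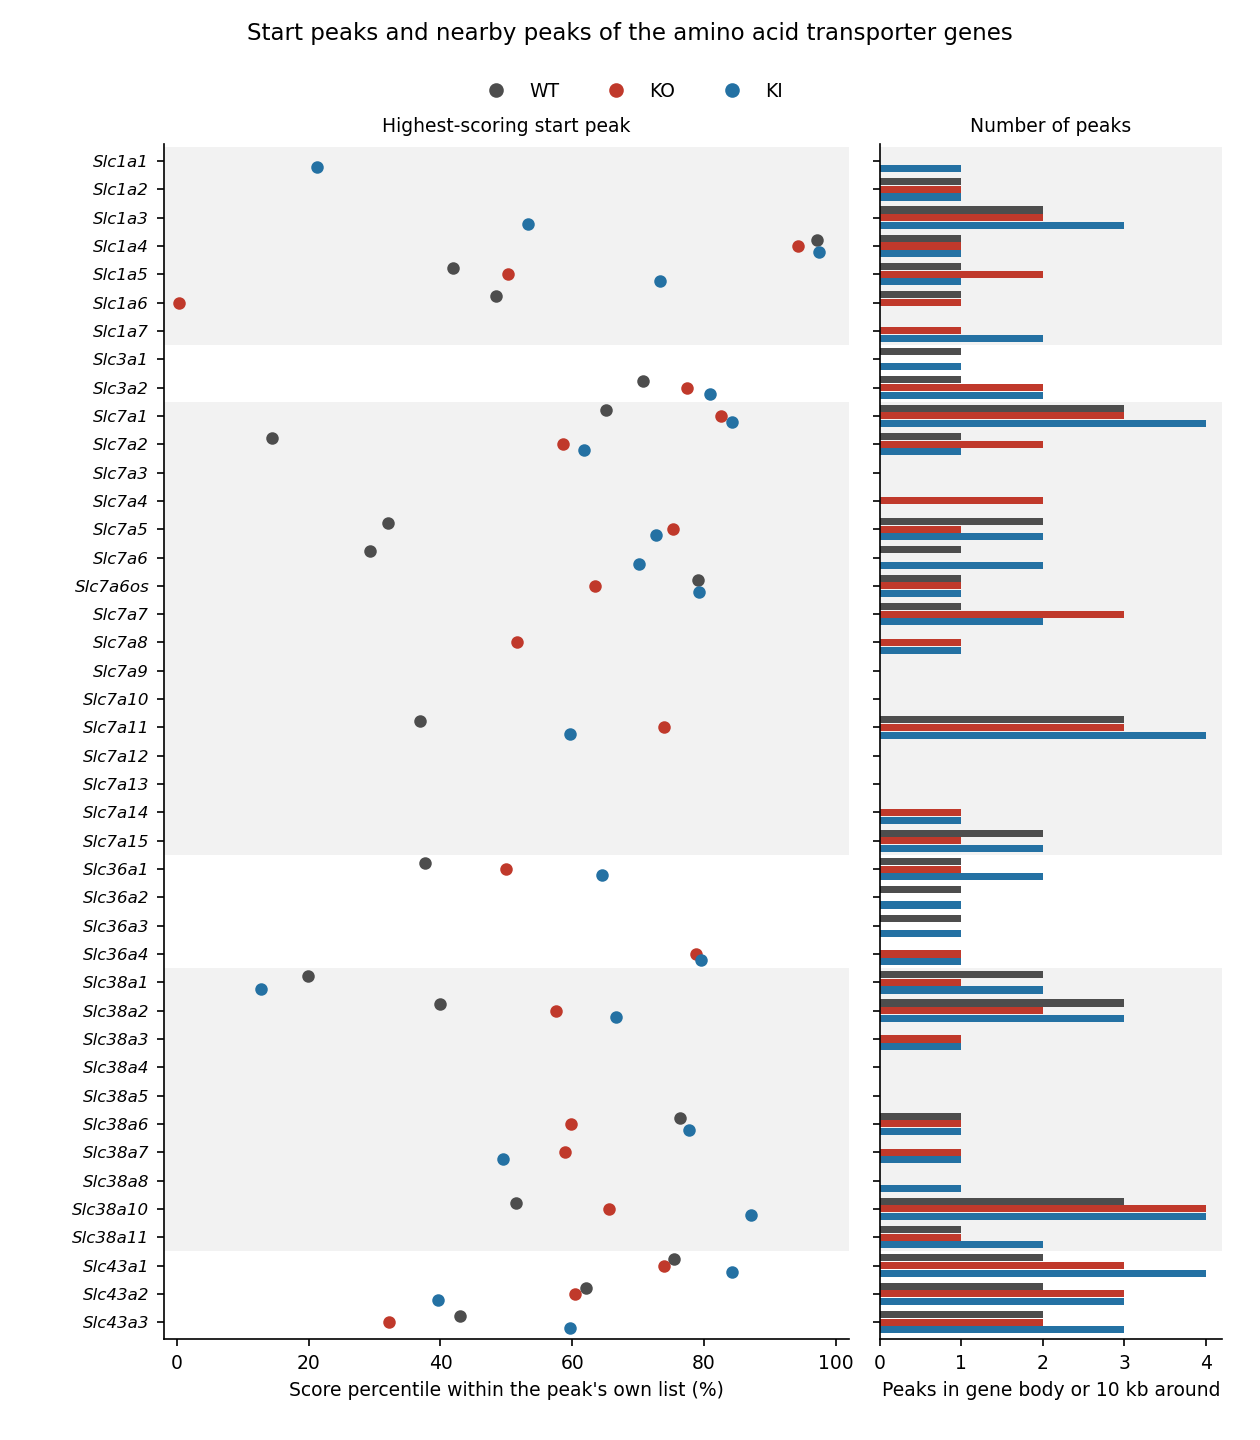
Left, score percentile within its own list of the strongest start peak of each of the 42 genes (rows, shaded by family) in WT, KO and KI (colours), with no point where a list had no start peak; right, number of peaks in the gene or within 10 kb. Slc1a4 has the rightmost points (97.2, 94.3 and 97.4), and Slc36a4 has points for KO and KI only.

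Among the heavy chains, Slc3a2 (chr19:8706882-8723369) had start peaks and Slc3a1 had none. Slc3a2 encodes CD98, the partner of Slc7a5, Slc7a6, Slc7a7, Slc7a8, Slc7a10 and Slc7a11. The score that the peak caller gave each peak was turned into a percentile of the peak's own list, where the strongest peak is at 100. The peak at the 5′ end of Slc3a2 stood at percentile 70.8 in WT, 77.4 in KO and 80.9 in KI. A second site lay at an annotated start about 10 kb further in, with no peak in WT, a peak of 899 bp at percentile 58.2 in KO and one of 1132 bp at 79.7 in KI. The KI peak covered that start, and the KO peak lay 108 bp downstream of it. WT thus had 1 site at this gene and each mutant list 2. Slc3a1, the heavy chain known from kidney and gut, had no start peak in any list, and a weak site upstream of it, inside the neighbouring gene Ppm1b, was in WT at 8.71 and in KI at 19.1 and had no KO peak.

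Of the light chains, Slc7a5, the leucine exchanger known as LAT1, had an end peak in all 3 lists, at percentile 32 in WT, 75.3 in KO and 72.7 in KI. Slc7a5 has no strand in the tables used, and the peak lay over the gene end with the higher coordinate. A second Slc7a5 site, 8840 bp into the gene from that end (chr8:121898260-121898846), stood at percentile 75.6 in WT and 71.3 in KI, and KO had no peak there. It was the only peak near the 42 genes that was among the strongest 25% of the WT list and absent from KO. Slc7a6, an exchanger of arginine for glutamine, had a start peak at percentile 29.3 in WT and a pair of adjacent peaks at 70.2 and 5.86 in KI. KO had no peak at the Slc7a6 start, and its nearest peak lay 17.8 kb away. Slc7a8, another neutral amino acid exchanger, had a start peak in KO alone, at percentile 51.6, and KI had instead a gene body peak at 31. Slc7a7, Slc7a9, Slc7a10, Slc7a12, Slc7a13 and Slc7a15, which also belong to the light chain branch, had no start peak in any list. The 3 sites near Slc7a7 lay at its neighbours Oxa1l and Mrpl52. Slc7a15 had a site downstream of the gene in every list (92.6, 86.6 and 92.3) and a gene body site in WT (43.9) and KI (58.6).

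Slc7a11 (chr3:50364936-50499087) had no peak at the 5′ end of the gene as annotated. Its start peak lay over the inner start, 55.6 kb into the annotated gene in WT, where the printed sequence is. That peak stood at percentile 36.9 in WT, 74 in KO and 59.7 in KI. Further into the gene were 4 other sites. One was in WT and KI (27.7 and 47.4), one in WT alone (14), and a pair was in KO (27.1 and 1.3) and KI (11.2 and 42.7) without WT. The 5 sites make Slc7a11 one of the 3 genes with the most sites, with Slc38a10 and Slc43a1.

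**Figure D2:**
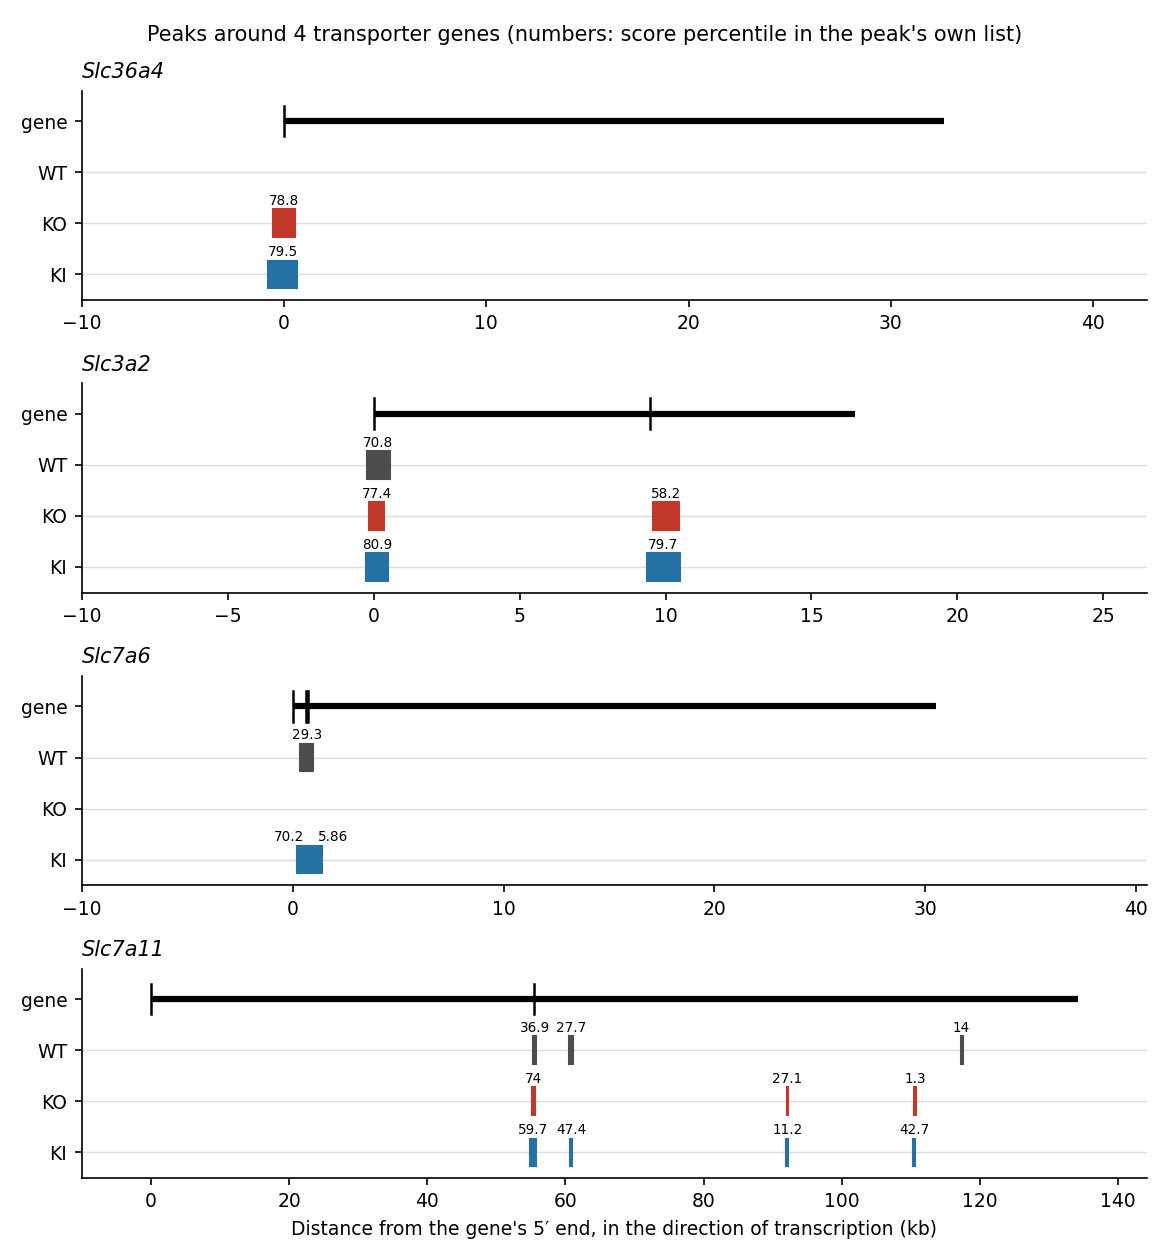
Peaks at Slc36a4, Slc3a2, Slc7a6 and Slc7a11 by distance from the gene's 5′ end in kb; the black bar is the gene, ticks its annotated starts, and coloured blocks the peaks of each list at their true width, with the score percentile above. The WT row is empty at Slc36a4, and the inner Slc3a2 site appears in KO (58.2) and KI (79.7) only.

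The cationic carriers differed among themselves. Slc7a1, the main arginine and lysine carrier of most cells, had start peaks at percentile 65.2 in WT, 82.6 in KO and 84.2 in KI. A gene body site of Slc7a1 was in every list, at 74, 87.5 and 89.8, another was in KO (29) and KI (63.6), and a further site was in KI alone (19.2). Slc7a2, its inducible relative, had a gene-end peak at 14.5 in WT, 58.6 in KO and 61.8 in KI. Slc7a3 had no peak in any list, and Slc7a4 had a pair of weak flanking peaks in KO alone, at 23.5 and 32.6. The one at 23.5 lay over the neighbouring gene P2rx6, 9827 bp from Slc7a4. Slc7a14 had no start peak, and a gene body site in KO (47.6) and KI (74.1).

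In the Slc1a family, the neutral amino acid carriers had a start or end peak in every list, and none of the glutamate carriers did. Slc1a4 (chr11:20302180-20332713), a carrier of serine, alanine and cysteine, had start peaks at percentile 97.2 in WT, 94.3 in KO and 97.4 in KI, the highest of all the start peaks of these genes in each list. Slc1a5, the glutamine exchanger also called ASCT2, had an end peak at 41.9, 50.2 and 73.4, with a second one at 0.281 in KO. Of the glutamate carriers, known mainly from brain and retina, Slc1a1 and Slc1a3 had a start peak in KI alone, at 21.2 and 53.3. The start peak of Slc1a6 stood at 48.4 in WT and at 0.297 in KO, which is at the floor of that list, and KI had none; the site also overlaps the gene Ccdc105. Slc1a2 had no start peak but a gene body site in every list (68, 69.6 and 73), and Slc1a7 a gene body site in KO (42.4) and KI (69.1).

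Among the Slc36a carriers, Slc36a1 and Slc36a4 had start peaks, while Slc36a2 and Slc36a3 shared 1 site between them, in WT (29.1) and KI (45.3). Slc36a1, which exports small amino acids from the lysosome, had start peaks of 290 bp at percentile 37.6 in WT, 665 bp at 50 in KO and 594 bp at 64.5 in KI. Slc36a4 (chr9:15709738-15742388), a carrier of proline and tryptophan, had no peak in WT, where the nearest peak lay 167 kb from the site. KO had a peak of 1079 bp at percentile 78.8 and KI one of 1452 bp at 79.5, both over the annotated start. Slc36a4 was thus the only one of the 8 genes with a start peak in some lists whose peak was in the strongest 25% of any list. Of the 22 KO peaks near the 42 genes that were absent from WT, it was the only 1 in the top 25%, and of the 27 such KI peaks it and the inner Slc3a2 site were the only 2. Over the whole lists, 48 of the 6225 KO peaks absent from WT and 142 of the 13216 such KI peaks were in the top 25%.

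In the sodium-coupled Slc38a family, Slc38a2, the carrier induced by amino acid starvation, had its strongest start peak at percentile 39.9 in WT, 57.6 in KO and 66.6 in KI. A site 9598 bp upstream of it was stronger in each list, at 74.5, 81.4 and 87.7. Slc38a1, a glutamine carrier, had an end peak in the WT (19.9) and KI (12.8) lists but not in KO, whose nearest peak lay 4.18 kb away within the gene. Slc38a7, a lysosomal glutamine carrier, had a peak 748 bp from its start in KO (58.9) and 665 bp from it in KI (49.5), with no WT peak. Slc38a6 had start peaks at 76.4, 59.8 and 77.8, but the same peaks covered the start of the neighbouring gene Trmt5 and cannot be assigned to either. The same holds for Slc7a6os, at 79.1, 63.4 and 79.2, whose peaks also covered Prmt7. Slc38a10 had a start peak at 51.4, 65.6 and 87.2 and 4 other sites, one of which, at 85.6, 92.7 and 94.8, lay over Ndufaf8 and Tepsin beyond its 3′ end. Slc38a3, Slc38a8 and Slc38a11 had no start peak. Slc38a11 had a gene body site in every list (72.9, 50.8 and 66.1), Slc38a3 a flanking site in KO (7.33) and KI (39.6), and Slc38a8 an upstream site in KI (18.3).

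Slc43a1, Slc43a2 and Slc43a3 had a start or end peak in every list. Slc43a1, a leucine carrier, stood at 75.4, 74 and 84.2 with a site downstream of the gene in every list at 52.3, 69.4 and 56.2. Its other sites were weak and in 1 list each, 1 in KO (15.2) and 2 in KI (15.1 and 5.3). Slc43a2 stood at 62.1, 60.4 and 39.7. Slc43a3, which carries purine nucleobases and not amino acids, stood at 43, 32.2 and 59.7, and had a further gene body site in KO (40.7) and KI (71) without WT.

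Start peaks of these genes ranked lower in their lists than start peaks at large. Their median percentile was 42.4 over 20 peaks in WT, 59.8 over 21 in KO and 68.4 over 24 in KI, against 66.5, 68.8 and 74.7 for the start peaks of all protein-coding genes. In WT 20% of them were among the strongest 25% of the list, against 39.1% for all start peaks. The corresponding values were 23.8% against 41.6% in KO and 37.5% against 49.5% in KI. Peaks near the genes but at none of their starts had medians of 48.1, 30.8 and 51.8, some of them lying at starts of neighbouring genes, against 32.8, 34.7 and 36.5 for peaks away from the start of any protein-coding gene. Percentiles of lists of different length are no measure of change between them. The median number of CpG in the upstream window was 21 where a peak was within 1 kb in all 3 lists, 23 where it was in 1 or 2 lists and 6 where there was none, against 18, 13 and 3 for all windows. Windows with a peak in all 3 lists ranged from 2 CpG, in Slc7a11, to 32.

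The comparison of WT with KO asks whether accessible sites differ once Cre can delete Mtor. Of the 18 genes with a start peak in WT, 2 lacked one in KO (11.1%, interval 3.1 to 32.8%, against 10.3% of all genes), Slc7a6 and Slc38a1. Of the 24 without one in WT, 3 had one in KO (12.5%, interval 4.34 to 31%, against 8.55%), Slc7a8, Slc36a4 and Slc38a7. Of the 40 WT peaks near the genes, 12 were absent from KO (30%, against 25.5% of the whole list), and of the 49 KO peaks 22 were absent from WT (44.9%, against 32.4%). The intervals of these shares were 18.1 to 45.4% and 31.9 to 58.7%, and both hold the whole-list value. Absent peaks were mostly weak, 11 of the 12 and 18 of the 22 lying in the lower 50% of their list. The median percentile was 28.4 for the WT peaks absent from KO and 56.9 for those shared with it, and 27.7 against 65.6 for the KO peaks set against WT. The whole lists gave like values, 21.8 against 62.1 and 25 against 65.1.

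The comparison of WT with KI shares the WT library. Of the 18 genes with a WT start peak, 1 lacked one in KI (5.56%, interval 0.988 to 25.8%, against 2.88%), Slc1a6, and of the 24 without one, 4 had one (16.7%, interval 6.68 to 35.9%, against 16.1%), Slc1a1, Slc1a3, Slc36a4 and Slc38a7. Of the 40 WT peaks, 5 were absent from KI (12.5%, against 13.1%), and of the 61 KI peaks, 27 were absent from WT (44.3%, against 46.5%). Slc36a4 and Slc38a7 were gained in both comparisons, which rest on the same WT list. Between the mutants, 2 of 19 genes with a KO start peak lacked one in KI (10.5%, interval 2.94 to 31.4%, against 2.81%), Slc1a6 and Slc7a8, and 4 of 23 were gained (17.4%, against 16.2%), Slc1a1, Slc1a3, Slc7a6 and Slc38a1. Of the KO peaks 8 of 49 were absent from KI (16.3%, against 16%), and of the KI peaks 19 of 61 were absent from KO (31.1%, interval 20.9 to 43.6%, against 43.2%). With only scores of at least 100, the KI shares lay above the whole-list values instead, at 62.9% against 42.3% for peaks absent from WT and 48.6% against 43.2% for peaks absent from KO. In none of the 11 cases of a gene and a list without its start peak did another peak of that list overlap the site. The definition of a start peak nearly fixes this, because the sites lie at those starts, so it adds nothing to the calls. With each list limited to its 17316 strongest peaks, Slc1a1 and Slc38a1 had no start or end peak in KI and Slc1a6 none in KO. From KO to KI, 1 of 18 was then lost (5.56%, against 6.67% of all genes).

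**Figure D3:**
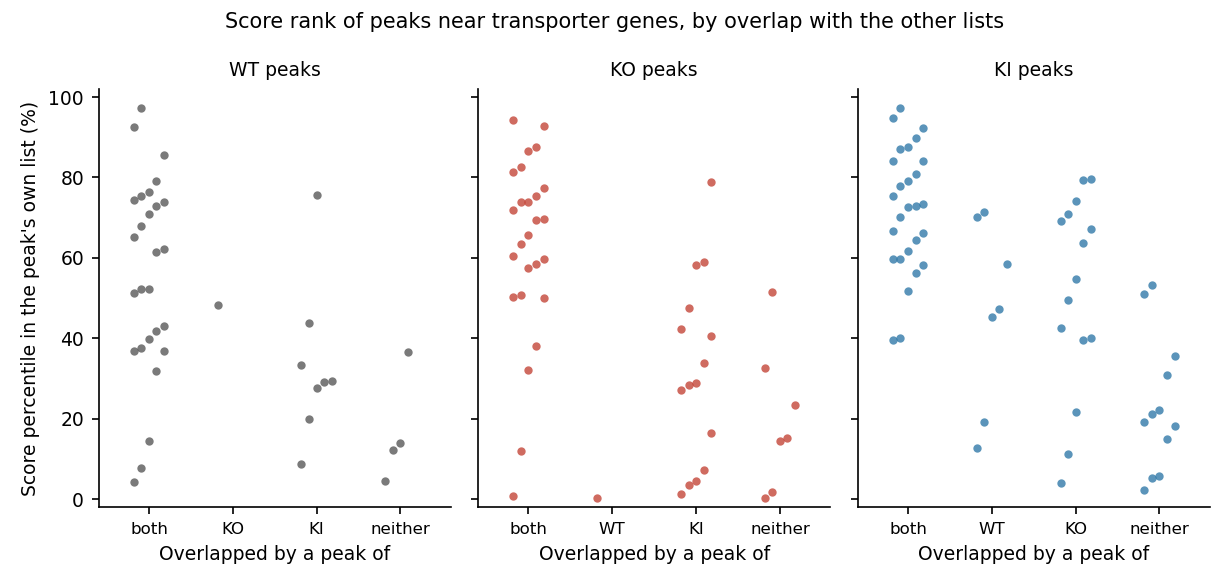
Score percentile (vertical axis) of every peak near the 42 genes in the WT, KO and KI lists (panels), grouped by whether a peak of both other lists, of 1 of them or of neither overlapped it; each point is 1 peak. Peaks overlapped by neither list reach percentile 53.3 at most, and the WT peak at 75.6 overlapped by KI alone is the Slc7a5 gene body site.

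Counting every site in the gene or within 10 kb of it, 26 genes had a peak in WT (61.9%, against 60.7%), 29 in KO (69%, against 61.5%) and 33 in KI (78.6%, against 69.7%). The genes are longer than most, with a median length of 31.3 kb against 17.2 kb, which widens the stretch searched. No list had a peak near Slc7a3, Slc7a9, Slc7a10, Slc7a12, Slc7a13, Slc38a4 or Slc38a5. These 7 genes are 16.7% of the 42, against 27.9% of all protein-coding genes, and 5 of them belong to the 16 Slc7a genes and 2 to the 10 Slc38a genes.

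**Figure D4:**
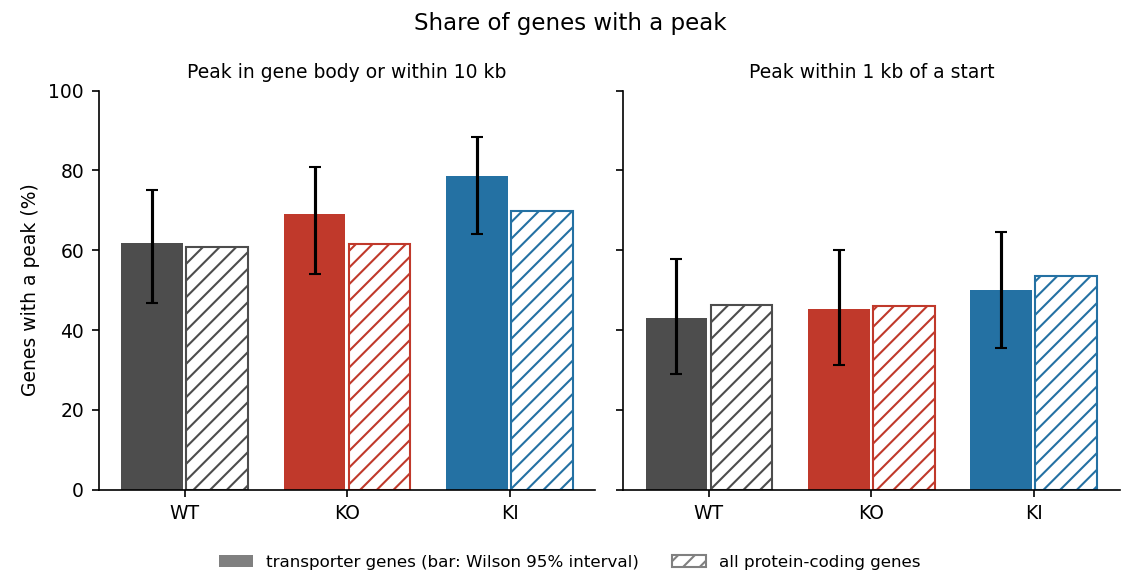
Percent of the 42 genes with a nearby or a start peak in each list, with 95% Wilson intervals, beside the percent of all protein-coding genes. Start peaks were at 42.9, 45.2 and 50% of the genes in WT, KO and KI, against 46.3, 46.1 and 53.6% of all genes.

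Merging the peaks of the 3 lists gave 72 sites, 1 of which lay near both Slc36a2 and Slc36a3. Of these, 26 were in all 3 lists (36.1%, against 37.5% of all merged sites), 1 in WT and KO (1.39%, against 1.31%), 7 in WT and KI (9.72%, against 7.71%), 4 in WT alone (5.56%, against 5.52%), 7 in KO alone (9.72%, against 7.99%) and 12 in KI alone (16.7%, interval 9.8 to 26.9%, against 29.3%). The sites in KO and KI without WT numbered 15 (20.8%, interval 13.1 to 31.6%, against 10.7%). They lay near 13 of the genes, 9 of them in gene bodies and 3 at starts, those of Slc36a4, Slc38a7 and the inner start of Slc3a2. The others lay upstream of Slc7a7, over its neighbour Mrpl52, upstream of Slc38a10 and in the flank of Slc38a3. The gene body sites were in Slc43a2, Slc38a10, Slc38a1, Slc43a3, Slc7a14, Slc7a11 (2 sites), Slc1a7 and Slc7a1. Their peaks were weak in KO, from percentile 1.3 to 47.6, and ranged from 11.2 to 74.1 in KI. With each list limited to its 17316 strongest peaks the share of sites in KO and KI was 15.3%, against 7.11% of all sites. It was 24% with flanks of 1 kb and 15.8% with 50 kb, both against 10.7%, and 18.4% against 9.61% with only scores of at least 100. The share of sites in KI alone was 8.47% against 10.6% with lists of equal length, and with only scores of at least 100 it was 39.5%, above the 29.9% of all sites. All merged sites include those far from any gene, and the comparison was not matched for place. The intervals cover counting error over sites only, and sites of the same gene are not independent.

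**Figure D5:**
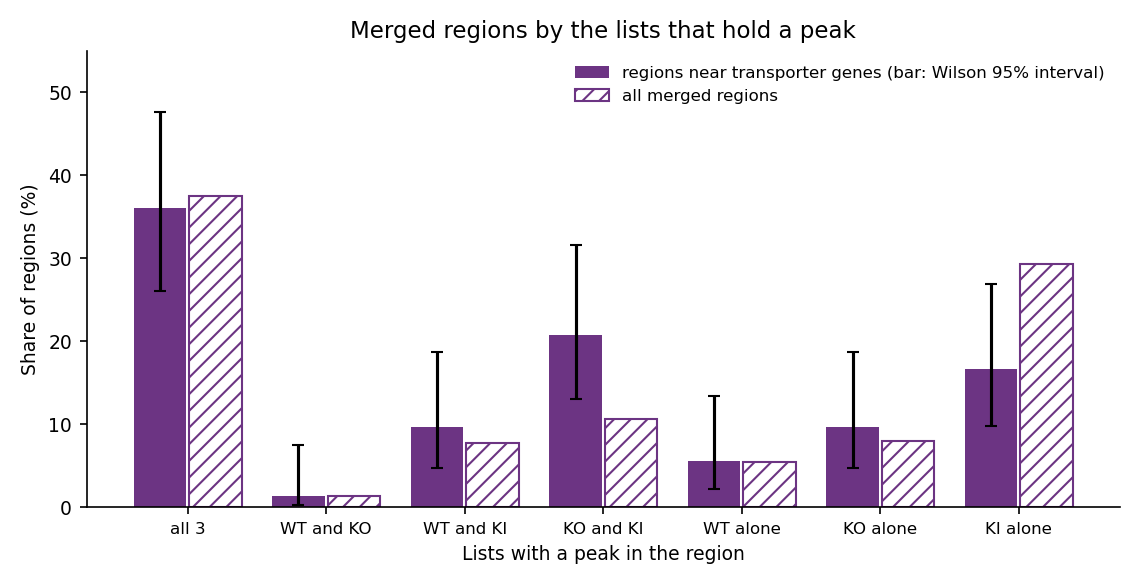
Percent of the 72 merged sites near the 42 genes that were in each combination of lists, with 95% Wilson intervals, beside the percent of all merged sites. Sites in KO and KI without WT made up 20.8% against 10.7%, and sites in KI alone 16.7% against 29.3%, an order that turns with only scores of at least 100 (39.5% against 29.9%).

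A list of 24 other amino acid carriers held genes of the Slc6a, Slc15a, Slc16a, Slc25a, Slc32a and Slc66a families with Ctns and Mfsd12. Of these 24, 12 had a start peak in WT, 13 in KO and 15 in KI, where all protein-coding genes had one in 46.3, 46.1 and 53.6% of cases. Many of the start peaks were at Slc25a genes. Slc6a9, a glycine carrier, lost its start peak in KO (28.3 in WT, 67.7 in KI), Slc6a20a gained one in KO (8.32), Slc15a3 in KO (42.1) and KI (70.5), and Slc66a1 (60.3) and Slc32a1 (46.1) in KI. Of 24 genes of the amino acid response, 18 had a start peak in all 3 lists, a higher share than the 41.2% of all protein-coding genes. Phgdh, which opens serine synthesis, had one in WT (29) and KI (74.3) and none in KO, and Stc2 had one in KO (24.5) and KI (6.26) but not in WT.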

How the data were processed

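The authors deposited 1 ATAC-seq peak list per library (WT, KO and KI), called per library, with 5 columns and peak names of the MACS form. The score of each peak, in column 5 of the deposited lists, was read as 10 times the negative log10 of its p-value, with a lowest value of 50. Build mm10 and CASAVA come from the submitters' processing notes. Not given in the sources used here were the aligner, MACS version, duplicate handling, read shift and filters, and depth is unknown. The 12 RNA-seq samples were not analysed here.

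Peaks of autosomes 1 to 19 and the sex chromosomes were compared with RefSeq genes of GRCm38.p6 with Python 3.11.15, pandas 2.3.3, numpy 2.4.6 and scipy 1.17.1. Peaks in the gene or within 10 kb were nearby, peaks within 1 kb (1000 bp) of a start were start peaks, and overlap of 1 bp counted as shared. Scores were ranked within their own list only. The code was checked on simulated lists.

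Genes were named where a start peak differed between lists, where a peak in the top 25% lacked a counterpart, for the most sites, for the highest WT start peak of a family, and where no list had a peak. Other genes were named after their values were seen, to account for each member. The symbol rule and the lists were chosen with earlier results of these data known. Alternatives were windows, flanks, overlap, score minimum, equal list length and leaving out Slc7a6os.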

Additional observations from a re-analysis of the deposited data

How the results depend on the processing

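Of 146 recomputed values, 123 stayed and 23 moved, where shares were judged by their counting interval and counts by a ratio of 1.5. None moved with a start window of 500 or 2500 bp, an overlap of at least 50%, peaks assigned to the nearest gene, or without Slc7a6os, although at 500 bp Slc38a7 lost its start peaks and at 2500 bp Slc1a7 gained one in KI. With flanks of 1 kb, sites in KO alone made up 4%, and with 50 kb the peaks near the genes numbered 92, 101 and 142 in WT, KO and KI.

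With lists of equal length, 2 start peaks were lost from WT to KI, 1 was lost and 2 were gained from KO to KI, and 30.4% of the peaks of KI had no WT counterpart (25.3% of the whole list). Sites in WT and KO only made up 0% and those in KI alone 8.47%. Slc1a1 and Slc38a1 then had no KI start peak and Slc1a6 none in KO.

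With a score of at least 100, nearby peaks remained at 14 genes in WT and 17 in KO, peaks numbered 15, 20 and 35, and start peaks in WT 7. From WT to KO 0 of 7 were lost (16.5% of all genes) and 6 of 35 gained (17.1%, against 6.03%), and from WT to KI 10 of 35 were gained (28.6%, against 16.9%). A peak scoring below 100 counted as absent here. Of the genes gained, only Slc36a4, in both comparisons, and Slc38a7, in KO, had no start peak in the full WT list. KI peaks without a counterpart made up 62.9% against WT (42.3% of the whole list) and 48.6% against KO (43.2%), which turned the order here too. Sites in KO alone made up 2.63% (2.94% of all sites) and in KI alone 39.5% (29.9%), so that the order against all sites turned for KI alone. Of the 8 genes with differing start peaks, Slc1a1, Slc1a3, Slc1a6, Slc7a8 and Slc38a1 then had none, Slc7a6 had one in KI, Slc38a7 one in KO, and Slc36a4 kept those of KO and KI. The cause of these shifts was not tested beyond the smaller number of peaks.

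No paired analysis was possible because each genotype had 1 ATAC-seq library. Read depth is unknown, so an absent peak shows only that the site did not reach the caller's threshold.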
